A study of Mus musculus with 2 samples.

Results

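The genes described are 9 microRNA (miRNA) genes of blood cells and microglia, out of 1973 miRNA genes in the deposited tables. They were taken by symbol and not by a cut on their values, but earlier results of these data were known. They are Mir144, Mir451a, Mir223, Mir150, Mir155, Mir146, Mir146b, Mir511 and Mir142b. The first 8 were read on their own strand. Mir142b was read on the opposite strand, where Mir142 lies. Small RNA (below 30 bases) had been sequenced from tissue labelled neural tube, in the embryo the precursor of brain and spinal cord, of B6NCrl mice at postnatal age 0 days. One group of 2 libraries was available, each from a single neural tube of a pup of the same dam, with no genetic change or treatment named and sex not collected. There was thus no contrast between conditions, and the values describe levels in this tissue and differences between 2 littermate libraries.

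A miRNA is a short RNA cut from a hairpin precursor that lowers the output of messenger RNAs to which it pairs, mostly through its seed, bases 2 to 8 from its 5′ end. Blood cells use lineage-restricted miRNAs: miR-144 and miR-451a in red blood cell precursors, miR-223 in granulocytes and monocytes, miR-150 in mature lymphocytes, and miR-142 in nearly all cells of blood origin, which include microglia, the resident macrophages of the nervous system. miR-155 and miR-146a are induced in activated immune cells, and miR-511 comes from the gene of a macrophage receptor.

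The sequences show which of the miRNAs share a seed. Sequences were from RefSeq (GRCm38.p6, the build of the deposited mm10 tables), where 8 of the 9 members had a hairpin entry. Among the mature miRNAs printed here only miR-146a-5p and miR-146b-5p share a seed, given in capitals.
miR-451a: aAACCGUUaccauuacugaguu
miR-144-3p: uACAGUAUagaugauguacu
miR-223-3p: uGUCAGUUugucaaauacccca
miR-142a-5p: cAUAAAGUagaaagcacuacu
miR-142a-3p: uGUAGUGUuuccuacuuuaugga
miR-142b: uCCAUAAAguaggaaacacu
miR-155-5p: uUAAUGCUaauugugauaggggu
miR-146a-5p: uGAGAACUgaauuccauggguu
miR-146b-5p: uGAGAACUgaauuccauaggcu
miR-511-3p: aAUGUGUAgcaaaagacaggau

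The 2 precursors of the red cell locus are shown with their mature sequences in capitals, because the text below compares their counts within each pup.
mir-144: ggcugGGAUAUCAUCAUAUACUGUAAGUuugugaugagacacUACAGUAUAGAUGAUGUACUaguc
mir-451a: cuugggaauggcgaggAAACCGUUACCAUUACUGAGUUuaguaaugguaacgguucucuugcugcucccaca
In the predicted fold of the 72-base mir-451a hairpin, the mature miRNA ran from base 17 to base 38 and took in 4 bases of the terminal loop. None of the other mature sequences with a folded hairpin, from the members and Mir142, reached into the loop. Mir150 had no hairpin entry and was not folded. As background, miR-451a is cut from its short hairpin by AGO2 without Dicer, whereas the other miRNAs here are Dicer products.

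All 9 genes were detected, with at least 10 counts in each pup, against 353 of 1973 genes (17.9%) in the tables as a whole. Own-strand totals were 3216453 and 3660693 counts. The 8 genes read on their own strand held 0.0755% of them in pup 1 (2428 counts, exact 95% binomial interval 0.0725 to 0.0785%) and 0.0852% in pup 2 (3120 counts, 0.0823 to 0.0883%), a mean of 0.0804% ± 0.0069 (SD, n = 2). With the opposite-strand count at Mir142b, which is not in these totals but was set against them, all 9 came to 3504 and 4556 counts, equal to 0.109% and 0.124% of the totals, a mean of 0.117% ± 0.011 (SD, n = 2). Levels are given as CPM, counts per 1000000 own-strand counts, so that a single count is worth 0.311 CPM in pup 1 and 0.273 CPM in pup 2. A read was taken to stand for 1 mature miRNA, whatever the length of the gene, so levels were not divided by gene length. The lengths of the reads were not examined. Intervals cover counting error only. In RNA of a whole tissue, fewer cells of a type and less RNA per cell cannot be told apart, nor can blood left in vessels and cells within the tissue.

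**Figure D1:**
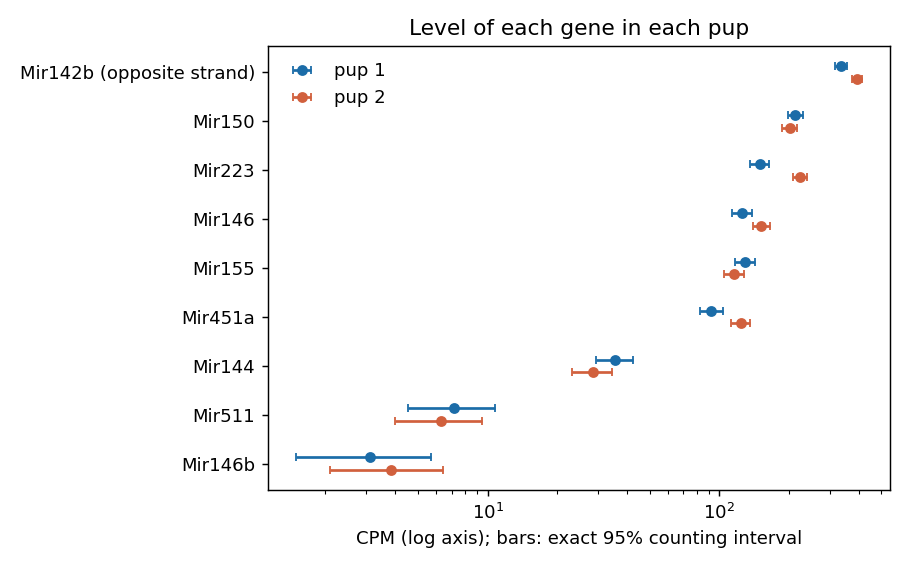
Level of each of the 9 genes in CPM (log axis) in pup 1 and pup 2, with exact 95% counting intervals as bars, ordered by mean. Mir142b, read on its opposite strand, was highest at 334.5 and 392 CPM, 5 genes lay between 92.3 and 222 CPM, and Mir146b was lowest at 3.11 and 3.82 CPM.

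The highest counts of the set lay at the locus of Mir142, the miRNA gene shared by nearly all cells of blood origin. The count opposite to Mir142b was 1076 in pup 1 and 1436 in pup 2, which gives 334.5 and 392 CPM, a mean of 363 CPM ± 40.8 (SD, n = 2), or 30.7% and 31.5% of all member counts. Pup 2 was the higher, and the counting intervals of the pups (315 to 355 and 372 to 413 CPM) did not overlap. On its own strand Mir142b had 0 counts in both pups, which allows up to 0.933 and 0.820 CPM. Mir142b lies on chromosome 11 (87756841 to 87756955, minus strand, mm10), and Mir142 on the plus strand within it (87756864 to 87756927). Mir142 had no row in the tables used here. The mature miR-142b (87756906 to 87756925, minus strand) is complementary to part of miR-142a-3p (87756903 to 87756925, plus strand), so a read of either strand is told from the other by its sequence. The counts do not separate the 5p and 3p arms, here or at any other gene. The locus is in an intron of the noncoding gene Mir142hg in GENCODE M21.

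Mir150 of lymphocytes and Mir223 of granulocytes and monocytes came next. Mir150 had 685 and 735 counts, or 213 CPM in pup 1 and 201 CPM in pup 2, a mean of 207 CPM ± 8.62 (SD, n = 2). Its counting intervals overlapped between the pups. Mir223 had 480 and 813 counts, or 149 CPM in pup 1 and 222 CPM in pup 2, a mean of 186 CPM ± 51.5 (SD, n = 2). This was the largest SD of the 9 genes, and the intervals, 136 to 163 CPM and 207 to 238 CPM, lay apart. Mir150 (chromosome 7, 45121757 to 45121821, plus strand) overlapped no other annotated gene. Mir223 (chromosome X, 96242817 to 96242926, plus strand) lay in an exon of the noncoding gene F630028O10Rik.

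The genes linked to immune activation were also present. Mir146, which makes miR-146a, a brake on inflammatory signalling through its targets Traf6 and Irak1, had 404 and 555 counts. That is 126 CPM in pup 1 and 152 CPM in pup 2, a mean of 139 CPM ± 18.4 (SD, n = 2), with intervals of 114 to 138 and 139 to 165 CPM that just missed each other. Mir155, processed from its host transcript in activated macrophages and lymphocytes, had 415 and 424 counts, or 129 and 116 CPM, a mean of 122 CPM ± 9.33 (SD, n = 2). Pup 1 was here the higher and the intervals overlapped. Mir146 lay outside other annotated genes (chromosome 11, 43374397 to 43374461, minus strand), and Mir155 in an exon of Mir155hg (chromosome 16, 84714140 to 84714204, plus strand).

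Mir146b, which makes the near-twin of miR-146a, was close to the detection limit with 10 and 14 counts, or 3.11 and 3.82 CPM. Counting from base 1 at the 5′ end, the mature sequences differ by G18A and U21C, from miR-146a-5p to miR-146b-5p, and share their first 17 bases. A read that ends before base 18 fits both genes, and such multiply placed reads enter no gene count. Mir146 stood 40.4-fold above Mir146b in pup 1 and 39.6-fold in pup 2, with wide intervals of 21.7 to 84.9 and 23.4 to 73.0. Mir146b (chromosome 19, 46342762 to 46342870, plus strand) lies in an intron of Mfsd13a.

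Mir511 was the scarcest of the genes after Mir146b. It had 23 counts in each pup, or 7.15 and 6.28 CPM, a mean of 6.72 CPM ± 0.614 (SD, n = 2). The gene (chromosome 2, 14261003 to 14261081, plus strand) lies in an intron of Mrc1, the mannose receptor of tissue macrophages. For each count of Mir511 there were 20.9 counts of Mir223 in pup 1 and 35.3 in pup 2.

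The red cell genes Mir144 and Mir451a lie 99 bases apart on the plus strand of chromosome 11 (78073005 to 78073070 and 78073170 to 78073241) and are known to be made as a single primary transcript. Mir451a had 297 and 452 counts, or 92.3 CPM in pup 1 and 123 CPM in pup 2, a mean of 108 CPM ± 22.0 (SD, n = 2), with intervals that did not overlap. Mir144 had 114 and 104 counts, or 35.4 and 28.4 CPM, a mean of 31.9 CPM ± 4.97 (SD, n = 2), with intervals that overlapped. Mir451a was thus higher in pup 2, and Mir144, just upstream of it, was not. Mir451b is annotated on the strand opposite to Mir451a, and its hairpin shares a run of 16 bases with the 22-base miR-451a. The opposite-strand count at Mir451a was 0 in both pups. The other 7 genes read on their own strand likewise had 0 opposite-strand counts in both pups.

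By mean level the order was Mir142b (opposite strand), Mir150, Mir223, Mir146, Mir155, Mir451a, Mir144, Mir511 and Mir146b. Of the 8 neighbouring pairs, 4 differed in mean log2(CPM + 1) by more than the two-sided 95% normal range of the spread between the pups, taken from SDs pooled over genes of like abundance: Mir142b over Mir150 (1.76-fold), Mir451a over Mir144 (3.38-fold), Mir144 over Mir511 (4.75-fold) and Mir511 over Mir146b (1.94-fold). The 5 genes from Mir150 to Mir451a followed each other at 1.11-fold to 1.34-fold, which did not exceed this spread. In 3 of these 4 steps the order of the neighbours was opposite in the pups: Mir150 led Mir223 by 1.43-fold in pup 1 and stood at 0.904 of it in pup 2. The spread between the pups holds no bias that acts on a sequence alike in both libraries. The order is therefore one of counts, and true amounts of the miRNAs were not measured.

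**Figure D2:**
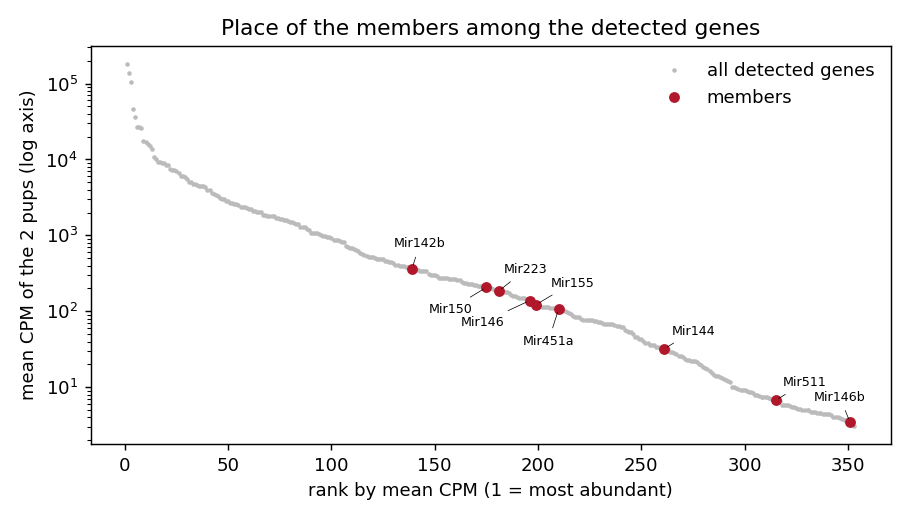
Mean CPM of the 353 detected genes (log axis) against rank, 1 being the most abundant, with the 9 genes in red. They span ranks 139 (Mir142b, opposite strand) to 351 (Mir146b), and none is among the 100 most abundant.

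The set lay in the middle and lower ranks of the detected genes. The opposite-strand count at Mir142b ranked 139, Mir150 175, Mir223 181, Mir146 196, Mir155 199 and Mir451a 210. Mir144 ranked 261, Mir511 315 and Mir146b 351. For scale, Mir137 of neurons stood at 16076 CPM ± 1484 and Mir126a of endothelium, the cells that line blood vessels, at 26923 CPM ± 1294 (SD, n = 2). Mir122 of liver cells (84.2 CPM ± 28.3) and Mir206 of skeletal muscle (85.6 CPM ± 23.0) had levels within the range of the blood genes. Protein-coding markers of blood cells and microglia were not analysed here, so the cell types are known only from the miRNA genes themselves.

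Between the pups, 4 of the 9 genes differed in their share of counts by the two-sided exact binomial test, adjusted after Benjamini and Hochberg over all 414 genes tested, and all 4 were higher in pup 2. The test compares 2 libraries and their counting error, not conditions. Of all tested genes 41.1% were called, 25.8% higher and 15.2% lower in pup 2, so the members' 44.4% is near the background and no result about them. The members' median log2 ratio of pup 2 over pup 1 was 0.23, and that of all tested genes 0.04.

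Mir223 had the largest log2 ratio, 0.57 (95% interval 0.41 to 0.74, adjusted p = 1.6e-11 by the exact binomial test). Mir451a followed with 0.42 (0.20 to 0.64, adjusted p = 0.00036), then Mir146 with 0.27 (0.08 to 0.46, adjusted p = 0.011) and Mir142b, opposite strand, with 0.23 (0.11 to 0.35, adjusted p = 0.00027), by the same exact test. Other genes of like level differed as much, the fewest of them for Mir223. With the detected genes ranked into 4 classes of abundance, in the class that holds Mir223, 9 of 87 other genes differed at least as much, and for Mir451a the number was 18 of 87. For Mir146 it was 32 of 87, and for the Mir142b locus 28 of 87 in the class above. The remaining genes were not called: Mir144 had a log2 ratio of -0.32 (-0.72 to 0.08), Mir155 -0.16 (-0.35 to 0.04) and Mir150 -0.09 (-0.24 to 0.07). The intervals of Mir511 (-1.09 to 0.71) and Mir146b (-0.98 to 1.63) do not exclude a 1.5-fold difference in either direction.

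**Figure D3:**
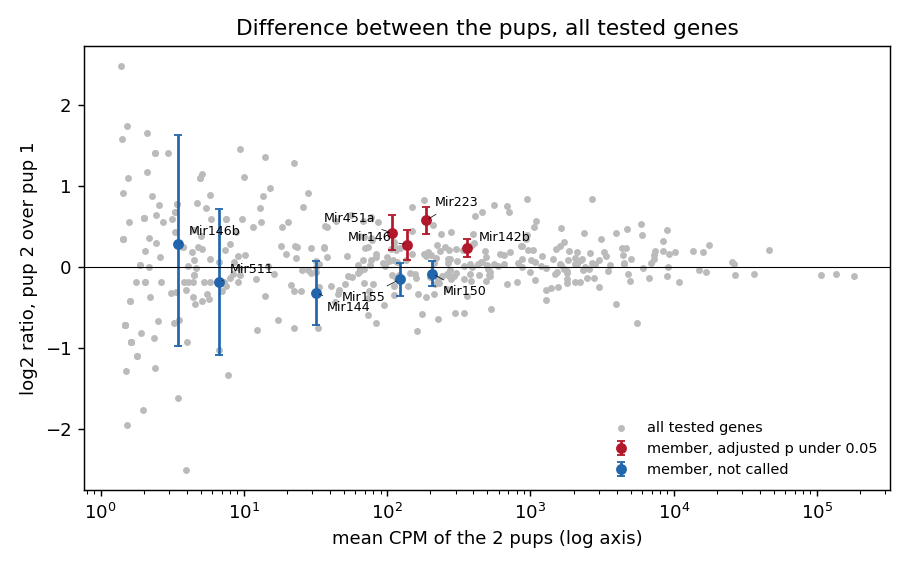
Log2 ratio of pup 2 over pup 1 against mean CPM (log axis) for the 414 tested genes in grey and the 9 genes in colour, with 95% counting intervals as bars. The 4 called genes (red) lie between 0.23 and 0.57, within the cloud of genes of like level.

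Scaling moved this balance. With edgeR's TMM scaling all log2 ratios fell by 0.07, the calls over all genes were 78 higher and 89 lower in place of 107 and 63, and Mir146 was no longer called (log2 ratio 0.20, adjusted p = 0.074). With DESeq2 size factors they were 93 higher and 79 lower. Mir223, Mir451a and the Mir142b locus stayed called and higher in pup 2 under both. Markers of other tissues moved too: Mir206 of muscle had a log2 ratio of 0.55 and Mir122 of liver -0.70, each called, and their part in the differences of the blood genes was not tested.

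The ratio of 2 genes within a library does not depend on its total. Of 6 pairs chosen by role, 3 had ratios that differed between the pups by Fisher's exact test, two-sided, with Benjamini-Hochberg adjustment over the 6 pairs. The share called among pairs of other genes was not measured, and 41.1% of all single genes tested were called between these pups. The 3 of 6 is therefore no result about these genes. There were 2.61 counts of Mir451a for each count of Mir144 in pup 1 and 4.35 in pup 2 (adjusted p = 0.0021, Fisher's exact test), although both miRNAs come from a single primary transcript. Mir223 stood at 0.701 of Mir150 in pup 1 (0.622 to 0.789) and at 1.11 times Mir150 in pup 2 (0.9999 to 1.22), a 1.58-fold change in the balance of the granulocyte and monocyte gene to the lymphocyte gene (adjusted p = 3.3e-08, Fisher's exact test).

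Mir223 relative to the Mir142 locus was 0.446 in pup 1 and 0.566 in pup 2 (adjusted p = 0.0021, Fisher's exact test). Mir451a relative to the same locus was 0.276 (0.242 to 0.314) and 0.315 (0.283 to 0.350), a 1.14-fold difference that was not called (adjusted p = 0.155, Fisher's exact test). The ratio of Mir146 to Mir146b (adjusted p = 1) and that of Mir511 to Mir223 (adjusted p = 0.132) were not called either by this exact test. These tests also measure counting error alone.

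**Figure D4:**
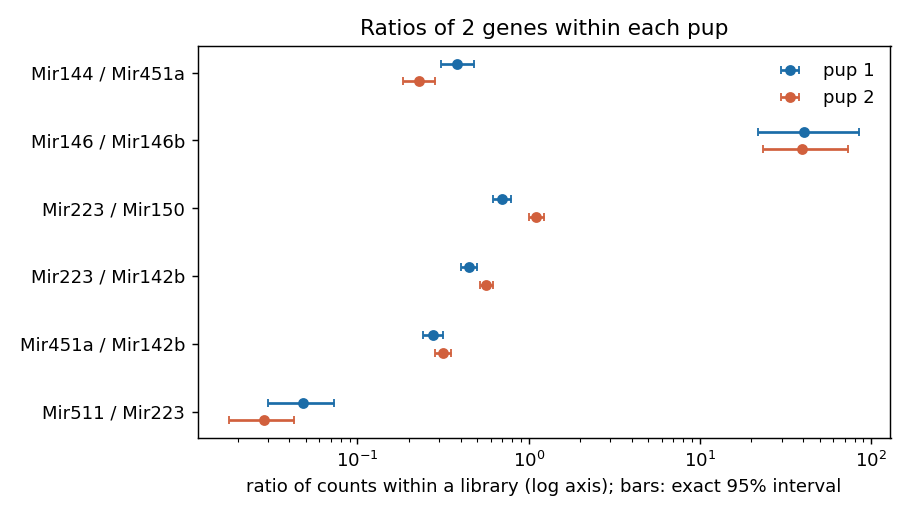
Ratio of the counts of 2 genes within a library (log axis) for the 6 pairs, in pup 1 and pup 2, with exact 95% intervals as bars; Mir142b stands for its opposite-strand count. The intervals of the pups lie apart for Mir144 over Mir451a, Mir223 over Mir150 and Mir223 over Mir142b.

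Other miRNA genes used by blood cells, most of them also active in many other tissues, were measured for comparison. All 12 such genes in the tables were detected, at means of 4.52 CPM (Mir147) to 4699 CPM. Mir342 stood highest at 4699 CPM ± 1077 (SD, n = 2), then Mir21a at 4637 CPM ± 517 and Mir652 at 3010 CPM ± 132. Mir486, a further miRNA of red blood cells, had 31 and 59 counts, or 9.64 and 16.1 CPM. Reads that fitted several places are in no gene count, and how many came from this miRNA was not measured. Its count can therefore be lower than its level. In the comparison of the pups 7 of the 12 were called higher and 1 (Mir181a-1) lower in pup 2 by the exact binomial test, against 25.8% and 15.2% of all tested genes, with a median log2 ratio of 0.21. Under either TMM or DESeq2 scaling 4 were called higher and 2 lower, against 18.8% and 21.5% of all tested genes with TMM and 22.5% and 19.1% with DESeq2. These shares over all tested genes were not matched for level, and at high counts small differences are called. Mir652, with 9380 and 11359 counts, was called at a log2 ratio of 0.09. Among genes with at least 50 counts summed, 35.6% were called higher and 20.5% lower in pup 2 without rescaling.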

How the data were processed

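Small RNA libraries of 2 pups were used, 1 per pup. The authors deposited tables of raw counts for each miRNA gene, with 3 columns and no header. The columns were taken as either, own and opposite strand from their values: the first is the sum of the others in all 1973 genes, and the own-strand column holds most counts. Per the text deposited with them, they used mm10 and GENCODE M4. For aligner and counting tool, names are not given in the sources used. Reads without a gene stayed out of totals: 35.7% and 35.4% fitted several places, 10.8% and 11.0% were unmapped, and 1.89% and 1.69% fell outside miRNA genes.

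Symbols came from GENCODE M21 (1894 of 1973 genes matched). CPM used own-strand totals, also for the opposite-strand count at Mir142b, which replaced its own-strand count in all tests. Genes with at least 10 counts summed were tested with an exact binomial test given the totals, 0.5 counts being added for log2 ratios, at an adjusted p of 0.05. SDs of log2(CPM + 1) were pooled in 4 classes of abundance. A count of 0 allows up to 3 counts. The test was checked on simulated counts that held counting error alone, with the totals of the unchanged genes given. That check does not bear on other spread between the pups. Members, lists and pairs were chosen with earlier results of these data known. All members are named. Other genes named by rule overlap a member, lie nearest in level to the 3 highest members, mark other cells, or lead the list of other blood genes. Mir486, Mir181a-1, Mir147 and the genes sharing bases 2 to 7 were named after their values were seen, and Mir10b as the most abundant gene. The comparison of differences within classes of abundance was also added then. Alternatives were TMM and DESeq2 scaling, other totals, minimums, pseudocounts and strands, and leaving out each pup. Tools were edgeR 4.0.16 and DESeq2 1.42.0 (R 4.3.3), ViennaRNA 2.7.2 and, in Python 3.11.15, scipy 1.17.1, numpy 2.4.6, pandas 2.3.3 and matplotlib 3.10.9.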

Additional observations from a re-analysis of the deposited data

How the results depend on the processing

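The share of all 9 genes, 0.117%, was 0.142% without Mir10b in the total, 0.0591% of all reads and 0.0804% without the Mir142 locus, each by construction of the total or the set. It was 0.109 to 0.124% when either pup was left out, and all 9 genes stayed detected, which with 2 pups says nothing about stability. Requiring a 1.5-fold difference left 0 of the 4 called members, with Mir223 nearest at 1.49-fold, and 32 of 170 called genes. A stricter rule can only lower such counts. No log2 ratio of a member changed sign under TMM or DESeq2 scaling or with 1 count added, and Mir146 under TMM was the only call lost to scaling. At a minimum of 50 counts in both pups 7 members remained, without Mir146b and Mir511. The count of neighbouring pairs beyond the spread (4) was the same with the other pseudocount and pooling. That of pair ratios called (3) could not change with either-strand counts, since the members had 0 counts on their other strand. No paired analysis was possible because there was 1 group. Depth limits Mir146b and Mir511 most, and reads that fitted several places are in no value.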

Other observations

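Among the mature sequences examined, which for Mir150 were miR-150-3p alone and for Mir511 miR-511-3p alone, only those of Mir146 and Mir146b shared bases 2 to 8 with a mature miRNA of another gene in the RefSeq table used. Sharing of bases 2 to 7 was found for Mir101a, whose miR-101a-3p shares them with miR-144-3p, at 524 CPM ± 15.8 (SD, n = 2), beside Mir144 at 31.9 CPM. Mir344f, which shares them with miR-223-3p, stood at 16.3 CPM ± 0.668, beside Mir223 at 186 CPM. Mir1198, which shares them with miR-511-3p, stood at 20.4 CPM ± 5.54, and Mir1187, likewise, had 0 counts in both pups. Mir7217, whose miR-7217-3p shares bases 2 to 7 with miR-146a-5p and miR-146b-5p, was not matched to a row of the tables and has no value here.

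Over the 2 pups, the gene nearest in log2(CPM + 1) to the Mir142 locus, among 344 detected genes outside the set, was Mir29c (329.9 CPM in pup 1 and 394 CPM in pup 2). Nearest to Mir150 was Mir145a (209.9 and 193 CPM) and nearest to Mir223 was Mirlet7a-1 (130.3 and 232 CPM). Likeness over 2 libraries is a likeness of level only.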
